A study of Mus musculus with 12 samples.

Results

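The major urinary proteins are a family of small secreted carriers made in the mouse liver, and the 10 genes described here are Mup1, Mup6, Mup7, Mup12, Mup14, Mup15, Mup17, Mup19, Mup21 and Mup22. They were taken as the rows whose gene IDs map to those symbols, 10 of the 57180 genes in the table, and were read in all 12 libraries both singly and as a sum per library. The table holds 12 further rows with a numbered Mup symbol and 27 rows with a Mup pseudogene symbol, so that 49 rows carry the family name. The 10 were chosen because their levels in liver differed between treated and vehicle mice, so every liver value below is a description with no test. Levels are in TPM, a scale of transcript abundance that is already corrected for transcript length and library size.

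Carbon tetrachloride (CCl4), a solvent toxic to hepatocytes, was compared with vehicle. Liver poly(A) RNA-seq came from CCl4-treated and vehicle-treated C57 mice, with 3 libraries in each group. The series' design text calls this material hepatocytes, and the sample labels call it liver. Smart-seq libraries, a low-input RNA-seq method, came from dorsal skin CX3CR1+ cells of CCl4-treated and vehicle-treated Cx3cr1-creER:Ai9 mice, again 3 each. In these mice a tamoxifen-inducible Cre is expressed from the Cx3cr1 locus, which is active in macrophages and related myeloid cells, and the Ai9 allele carries the red reporter that Cre switches on. All 6 skin libraries share both alleles. The labels do not state dose, duration, age or sex, and replicates of a group are separate biological samples according to the design text.

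Major urinary proteins are lipocalins: each folds into a barrel with a greasy pocket that carries volatile pheromones from the liver through the blood into urine. Their genes lie side by side on chromosome 4 and are close copies of one another. In mouse liver they are among the most abundant messages, are more strongly expressed in males, and are known to depend on pulsed growth hormone acting through its receptor and STAT5B, with further control by androgens, glucocorticoids and thyroid hormone.

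How far the 10 genes can be told apart by sequencing is set by their sequence, so the first 60 coding bases of 7 of them are shown, from GENCODE M21 transcripts on chromosome 4, 5′ to 3′. Capitals mark bases that differ from, or are inserted relative to, Mup7 in a global alignment of the coding sequences.
Mup7: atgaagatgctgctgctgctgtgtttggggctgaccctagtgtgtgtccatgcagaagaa
Mup14: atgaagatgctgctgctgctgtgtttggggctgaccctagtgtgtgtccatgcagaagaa
Mup19: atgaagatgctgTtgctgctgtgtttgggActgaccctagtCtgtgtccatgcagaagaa
Mup17: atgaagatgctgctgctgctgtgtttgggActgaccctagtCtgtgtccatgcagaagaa
Mup22: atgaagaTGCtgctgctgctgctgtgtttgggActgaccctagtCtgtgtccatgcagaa
Mup6: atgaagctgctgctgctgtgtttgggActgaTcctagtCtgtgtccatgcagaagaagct
Mup21: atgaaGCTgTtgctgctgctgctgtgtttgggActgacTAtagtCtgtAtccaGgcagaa
Mup7 and Mup14 were identical over this stretch, Mup19 differed from Mup7 at 3 bases, and Mup21 differed at 7 bases and carried 3 inserted ones. Across the whole coding sequence the family members other than Mup6 and Mup21 were 98.34% to 99.63% identical in their 28 pairs. Mup6 was 89.26% to 90.19% identical to those 8 genes, and Mup21 was 83.61% to 84.71% identical to the other 9.

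This closeness bears on single-gene values unequally. The liver and skin reads were 150 bases long, per the labels, and the share of distinct 150-base windows of a gene's transcripts that also occur in another annotated gene was taken as a measure of sequence that 1 read cannot assign. That share was 100% for Mup22, 99.23% for Mup19, 90.72% for Mup15, 75.93% for Mup12, 67.15% for Mup7, 65.7% for Mup14, 52.53% for Mup1 and 40.36% for Mup17. It was 0.0% for Mup6 and for Mup21, so no exact 150-base stretch of theirs is shared with another gene in this annotation. Shorter reads, and reads aligned with mismatches, are not covered by this measure. All the genes holding a shared window were themselves Mup genes. The levels of Mup22 and Mup19 in particular rest on how the authors' software divided reads among paralogs, and the sum over the 10 genes is less exposed to that division, although reads can also move to or from the other numbered Mup genes.

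The start regions of the genes are alike as well. RefSeq promoter windows (GRCm38.p6, 250 bases before to 50 after the annotated start) were at hand for 7 of the 10 genes, and the motif TATATAA, which resembles the box that positions transcription starts, was found on the gene's own strand in 6 of them, within a search of both strands. Of all 32851 promoter windows, 3.24% hold it. The 67 bases ending in that motif, which is in capitals, are shown because they allow genes with near-identical start regions to be set beside their levels.
Mup19 (chr4:61782249-61782315, minus strand): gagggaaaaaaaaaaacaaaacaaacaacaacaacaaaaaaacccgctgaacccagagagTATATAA
Mup15 (chr4:61439723-61439789, minus strand): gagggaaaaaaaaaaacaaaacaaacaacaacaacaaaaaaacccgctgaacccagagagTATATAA
Mup17 (chr4:61595851-61595917, minus strand): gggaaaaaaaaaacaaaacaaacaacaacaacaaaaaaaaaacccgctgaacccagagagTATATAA
Mup14 (chr4:61303980-61304046, minus strand): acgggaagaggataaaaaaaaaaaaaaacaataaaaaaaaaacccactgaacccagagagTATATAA
Mup6 (chr4:60003392-60003458, plus strand): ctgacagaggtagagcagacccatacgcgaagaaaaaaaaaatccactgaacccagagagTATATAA
Mup21 (chr4:62150843-62150909, minus strand): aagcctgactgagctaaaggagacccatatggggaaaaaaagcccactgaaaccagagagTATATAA
Mup19 and Mup15 did not differ at any of the 67 bases. Mup14 differed from Mup19 at 12 positions without gaps, and Mup21 differed from Mup19 at 28. In Mup14 the motif lies just after the annotated start, and in the other 5 just before it. The Mup7 window does not contain the motif. The STAT5-type motif TTCNNNGAA, present in 8.3% of all windows, and the forkhead-type motif TGTTTAC, present in 3.65%, were in none of the 7 windows, which says only that those letters are not in these short stretches.

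In liver the 10 genes together stood at 4188, 3585 and 6541 TPM in the CCl4 libraries and at 113502, 119414 and 115961 TPM in the vehicle libraries. They thus made up 0.477% ± 0.156 of all TPM with CCl4 and 11.6% ± 0.297 with vehicle (SD, n = 3 each). Every CCl4 library was far below every vehicle library, and the vehicle sum was 24.4 times the CCl4 sum. In bulk RNA, fewer cells of a type and less RNA per cell cannot be told apart. All 49 rows with the family name added up to 0.968% ± 0.333 of TPM with CCl4 and 16.9% ± 0.294 with vehicle.

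The share of one transcript species affects all others in TPM, and the whole liver table leaned the same way. Filtering kept 10385 liver genes, those reaching 1 TPM in 3 or more of the 6 libraries, and limma called 61.4% of them at an adjusted p under 0.05, with 10.3% higher and 51.1% lower with CCl4, and the median log2 difference over all of them was -0.59. Of the genes called, 16.8% were higher as deposited, 40.4% after median-ratio scaling, 40.9% after quantile normalization, and 94.7% when TPM were rescaled to nuclear genes with a standard symbol, where the median of all genes was 0.89. That rescaling called 398 of the 10385 genes lower, against 5304 as deposited. At most 398 calls of lower could therefore hold under every scaling. All 13 hepatocyte markers were lower in every CCl4 liver than in any vehicle liver (summed range 19205 to 43560 TPM, against 95995 to 104560 TPM with vehicle). Most markers of other liver cell types were higher in every CCl4 liver than in any vehicle liver: 10 of 10 for macrophages (195 to 625 TPM with CCl4, 33.4 to 81.2 TPM with vehicle), 8 of 8 for endothelium (135 to 409, against 22.6 to 27.4), 8 of 8 for stellate cells and fibroblasts (90.2 to 189.5, against 8.69 to 12.3) and 7 of 8 for neutrophils (33.1 to 354, against 0.12 to 0.96). None of the defining markers on these lists was at 0 in every liver library, and the part that cell make-up has in the differences below was not tested.

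Mup7 (ENSMUSG00000073842), the most abundant of the 10 in vehicle livers, had 611, 356 and 682 TPM with CCl4 and 42436, 43723 and 43194 TPM with vehicle. The vehicle livers spread by only 1.5% (coefficient of variation) and no library of one group approached the other. The log2 difference, on the log2(TPM + 1) scale used throughout, was -6.34.

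Mup22 (ENSMUSG00000110439) had 2903, 2366 and 4582 TPM with CCl4 and 36898, 35336 and 36141 TPM with vehicle, a log2 difference of -3.52. It had the smallest difference of the 10, except with a pseudocount of 5, where Mup6 had -2.75 and Mup22 -3.51, and it was the leading Mup gene of the CCl4 livers. Mup14 (ENSMUSG00000073830) had 610, 816 and 1168 TPM with CCl4 and 21965, 23182 and 22343 TPM with vehicle, a log2 difference of -4.75.

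Mup19 and Mup17 showed the widest gaps. Mup19 (ENSMUSG00000078673) had 12, 8.67 and 4.46 TPM with CCl4 and 5546, 8760 and 6899 TPM with vehicle, a log2 difference of -9.62. Mup17 (ENSMUSG00000096688) had 0.87, 0.66 and 1.63 TPM with CCl4 and 997, 1628 and 1271 TPM with vehicle, a log2 difference of -9.31. With TPM near 1 in the CCl4 livers, the Mup17 value depends on the pseudocount, and it was -10.20 with a pseudocount of 0.1 and -7.73 with 5.

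Mup15 (ENSMUSG00000096674) had 5.64, 8.07 and 17.3 TPM with CCl4 and 2033, 2702 and 2320 TPM with vehicle, a log2 difference of -7.82. Its printed start region is identical to that of Mup19, whose mean level was 7068 ± 1613 TPM in vehicle livers, against 2351 ± 336 TPM for Mup15 (SD, n = 3). In the CCl4 livers the ranges of these genes overlapped.

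Mup1 (ENSMUSG00000078683) had 29.8, 21.3 and 59.9 TPM with CCl4 and 2686, 2953 and 2800 TPM with vehicle, a log2 difference of -6.34. Mup12 (ENSMUSG00000094793) had 8.09, 4.70 and 16.8 TPM with CCl4 and 630.1, 714 and 656 TPM with vehicle, a log2 difference of -6.10. In both genes CCl4 replicate 3 was the highest of its group and replicate 2 the lowest.

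Mup21 and Mup6, the genes without shared windows, were also lower. Mup21 (ENSMUSG00000066153) had 6.20, 2.97 and 7.50 TPM with CCl4 and 280, 383 and 303 TPM with vehicle, a log2 difference of -5.68. Mup6 (ENSMUSG00000078689), the least abundant of the 10, had 0.41, 0.60 and 0.94 TPM with CCl4 and 30.8, 33.2 and 34.9 TPM with vehicle, a log2 difference of -4.37. With its CCl4 values below 1 TPM, that difference was -5.52 with a pseudocount of 0.1 and -2.75 with 5.

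**Figure D1:**
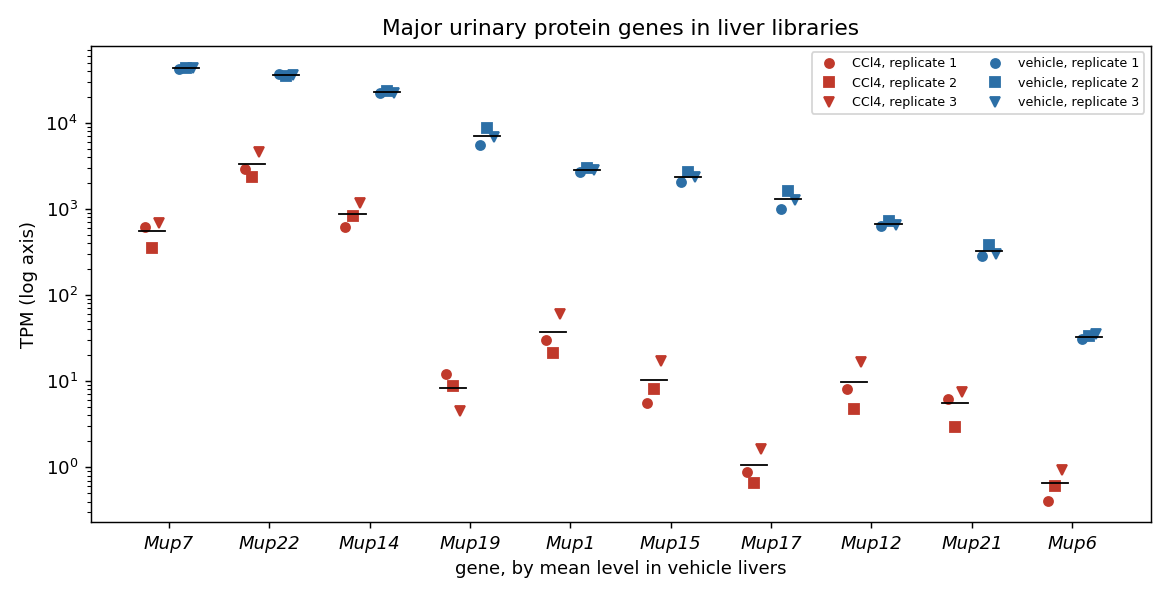
Level of each gene in the 6 liver libraries, in TPM on a log axis, with CCl4 libraries in red on the left of each pair and vehicle libraries in blue on the right. Marker shapes give the replicate and black bars the group mean; in all 10 genes the groups are apart, from Mup7 (611, 356 and 682 TPM with CCl4) to Mup6 (0.41, 0.60 and 0.94 TPM with CCl4).

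All 10 genes passed the filter and in all 10 every CCl4 liver lay below every vehicle liver, as was the case for 58.8% of the liver genes tested. The genes had been chosen on this contrast, so that count says nothing further. Their log2 differences ran from -9.62 to -3.52 with a median of -6.22, beside -0.59 over all genes. Ranked from the lowest among 10385 genes, Mup19, Mup17, Mup15, Mup7, Mup1 and Mup12 took places 1 to 6, Mup21 place 8, Mup14 place 11, Mup6 place 12 and Mup22 place 32. These places hold for the deposited TPM with a pseudocount of 1 and all libraries. Mup1 passed Mup7 with a pseudocount of 0.1 (-6.38 against -6.35), after median-ratio scaling (-5.7345 against -5.7292) and after rescaling (-4.63 against -4.60). Mup12 passed Mup1 after quantile normalization (-5.19 against -4.99). Without CCl4 replicate 3, Mup17 passed Mup19 (-9.50 against -9.28), and Mup1 and Mup12 passed Mup7 (-6.7477 and -6.5334 against -6.5276). Mup1 also passed Mup7 without vehicle replicate 1 (-6.3741 against -6.3564) and without vehicle replicate 3 (-6.3441 against -6.3436). Mup17 passed Mup19 with a pseudocount of 0.1 (-10.20 against -9.79), after quantile normalization (-8.76 against -8.61) and after rescaling (-8.31 against -8.01), and Mup6 passed Mup14 with a pseudocount of 0.1 (-5.52 against -4.75), after quantile normalization (-4.07 against -4.05) and after rescaling (-3.59 against -3.0).

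The order of levels differed between the groups. In CCl4 livers Mup22 came first, followed by Mup14 and Mup7, which overlapped, then Mup1, then Mup15, Mup12, Mup19 and Mup21, each overlapping its neighbour, and last Mup17 and Mup6, which overlapped. In vehicle livers the order was Mup7, Mup22, Mup14, Mup19, Mup1, Mup15, Mup17, Mup12, Mup21 and Mup6, and of these neighbours only Mup1 and Mup15 overlapped. Mup19, at rank 4 in vehicle livers, was thus at rank 7 in CCl4 livers.

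The summed signal was also made up differently. Mup22 supplied 68.5% ± 2.16 of the 10-gene sum with CCl4 and 31.1% ± 1.46 with vehicle (SD, n = 3 each). Mup7 supplied 11.7% ± 2.57 with CCl4 and 37.1% ± 0.412 with vehicle, and Mup19 supplied 0.199% ± 0.115 with CCl4 and 6.06% ± 1.23 with vehicle. Mup14 had a like share in both groups, 18.4% ± 4.12 with CCl4 and 19.3% ± 0.0729 with vehicle. Because no 150-base window of Mup22 is its own, its share depends on the division of reads among the copies.

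**Figure D2:**
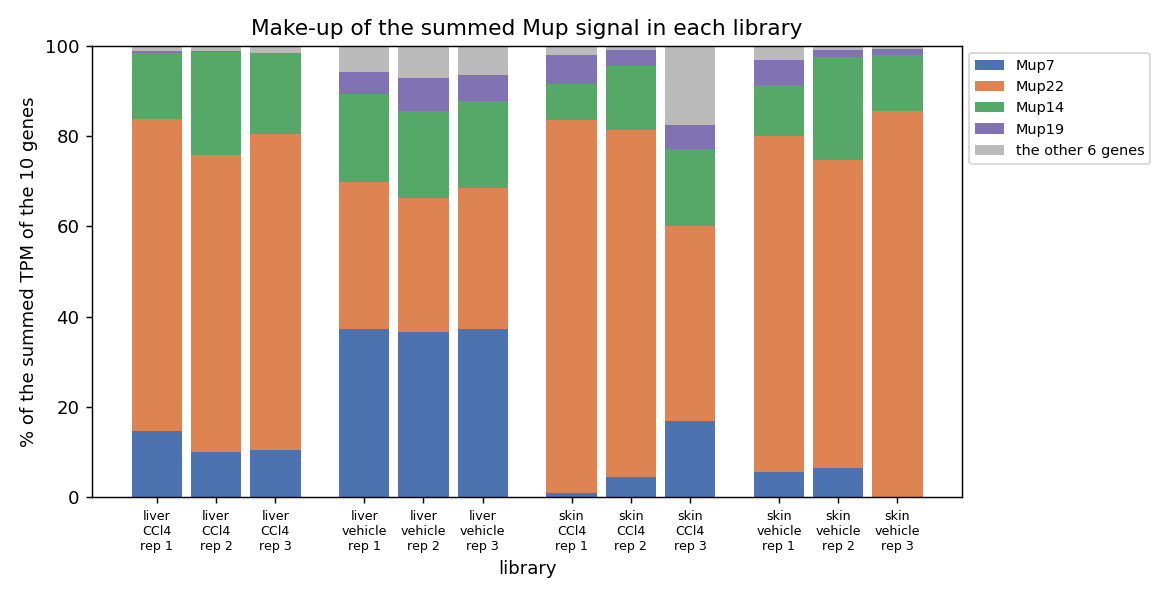
Share of each gene in the summed TPM of the 10 genes, in percent, for each of the 12 libraries, with CCl4 left of vehicle in each tissue. Mup22 fills 68.5% of the bar on average in CCl4 livers and 31.1% in vehicle livers, while Mup7 fills 11.7% in CCl4 livers and 37.1% in vehicle livers.

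Albumin (Alb), the main plasma protein made by hepatocytes, averaged 13791 ± 6881 TPM with CCl4 and 43048 ± 2745 TPM with vehicle. Set against it, the 10 genes were still lower with CCl4. Per 100 TPM of Alb the 10-gene sum stood at 36.8 ± 9.06 TPM in CCl4 livers and 270.6 ± 10.8 TPM in vehicle livers, so that vehicle was 7.35 times CCl4 on this scale. The same ratio was 3.34 for Mup22, 7.93 for Mup14, 22.6 for Mup7, 208 for Mup19 and 384 for Mup17. For the genes without shared windows it was 16.95 for Mup21 and 15.9 for Mup6.

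Of the 12 other numbered Mup genes, 10 passed the filter, and their median log2 difference was -3.47. Together the 12 summed to 4909 ± 1807 TPM with CCl4 and 52851 ± 101 TPM with vehicle (SD, n = 3 each). Mup3, which like Mup6 and Mup21 has no shared window, had 1153, 1247 and 2095 TPM with CCl4 and 18005, 17871 and 18048 TPM with vehicle, a log2 difference of -3.64.

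Mup20, which encodes darcin, the male urine protein that makes a scent attractive to females, had 901, 1233 and 1944 TPM with CCl4 and 9705, 10169 and 9843 TPM with vehicle, a log2 difference of -2.94. Mup11 had the largest difference of the other numbered Mup genes, with 154, 102 and 322 TPM with CCl4 and 8199, 8504 and 8339 TPM with vehicle, a log2 difference of -5.59. That lies inside the range of the 10. As deposited, Mup2, Mup18 and Mup3 also had larger differences than Mup22, at -3.52. The log2 differences of Mup2, Mup18, Mup9, Mup16, Mup8 and Mup13 were -4.15, -3.77, -3.49, -3.45, -3.18 and -2.40. In Mup8 CCl4 replicate 3, at 56.6 TPM, lay apart from 1.83 and 1.68 TPM in the other CCl4 livers and close to the vehicle livers at 60.8, 77.2 and 66.6 TPM.

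Mup10 had the smallest difference of the numbered genes past the filter, with 457, 647 and 807 TPM in CCl4 livers and 2376, 1757 and 2239 TPM in vehicle livers. Its log2 difference was -1.76 as deposited, 0.02 after quantile normalization and -0.01 after rescaling to standard-symbol genes, so its direction rests on the scaling. Mup4 and Mup5 did not pass the filter, with at most 0.99 TPM in any liver library. Of the 27 pseudogene rows, Mup-ps19 and Mup-ps17 reached a mean of 1 TPM in a liver group and 15 were listed at 0 in all 6 liver libraries.

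**Figure D3:**
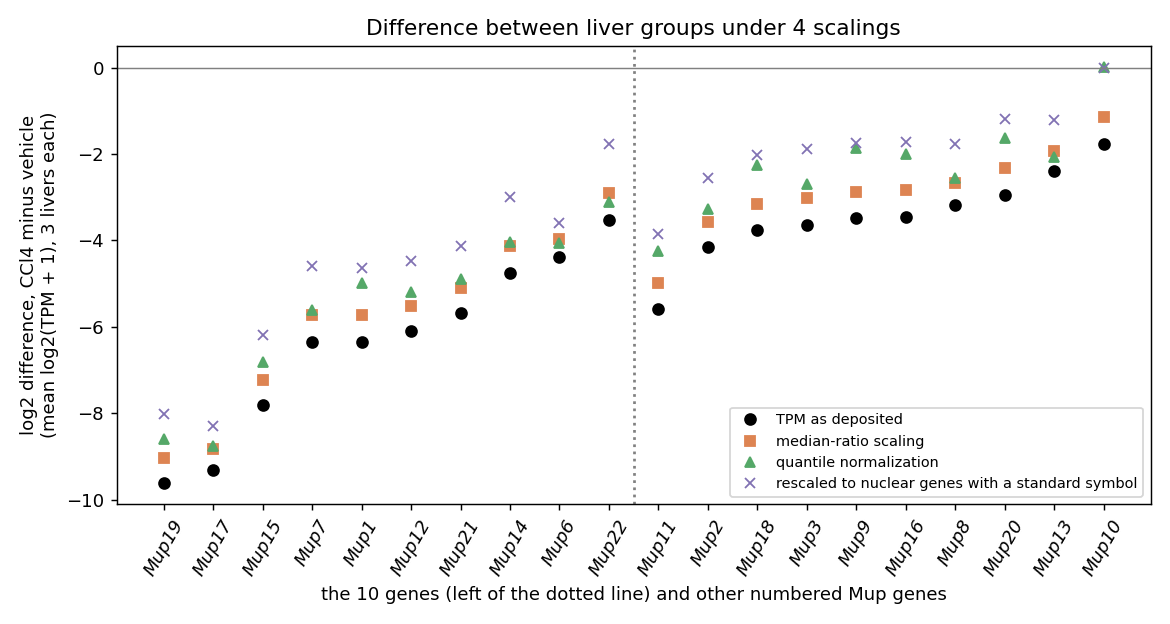
Difference in mean log2(TPM + 1) between CCl4 and vehicle livers for the 10 genes, left of the dotted line, and for the 10 other numbered Mup genes past the filter, under the deposited TPM and 3 other scalings. The 10 genes stay below 0 under each of these scalings, Mup19 from -9.62 to -8.01 and Mup22 from -3.52 to -1.77, while Mup10 reaches about 0 under 2 of them.

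Growth hormone signalling, on which Mup transcription is known to depend, was described from a list of 14 genes, 12 of them past the filter. Limma called 4 of the 12 lower and 2 higher, beside 51.1% lower and 10.3% higher over all liver genes, and the list's median log2 difference was -0.50. After rescaling to standard-symbol genes that median was 0.96, beside 0.89 over all genes, so the list's direction turned with the scaling. Ghr, the growth hormone receptor, had 29.2, 23.0 and 54.9 TPM with CCl4 and 181.9, 181.6 and 183.3 TPM with vehicle, a log2 difference of -2.42 ± 0.35 (SE, limma adjusted p = 0.000315), and stayed lower under the 3 other scalings.

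Stat5b, the transcription factor activated by that receptor in hepatocytes, averaged 3.86 ± 0.654 TPM with CCl4 and 10.5 ± 0.376 TPM with vehicle (log2 difference -1.24, limma adjusted p = 0.000689). Igf1, the circulating growth factor induced by growth hormone, had a log2 difference of -1.41 (limma adjusted p = 0.0044), and Igfals, which holds that factor in plasma, one of -1.52 (limma adjusted p = 0.00294). Of these calls Stat5b held after median-ratio and quantile scaling, Igf1 and Igfals after median-ratio scaling alone. After rescaling to standard-symbol genes the direction turned in each, to 0.28 for Stat5b (limma adjusted p = 0.143), 0.33 for Igf1 (limma adjusted p = 0.0436) and 0.12 for Igfals (limma adjusted p = 0.568). Socs3, a feedback inhibitor of cytokine receptors, was higher by 1.10 (limma adjusted p = 0.00434) and Jak2, the receptor's kinase, by 0.58 (limma adjusted p = 0.028). Both are named because their count is small. Both calls held under the other scalings, but each of these raised the median over all genes, from -0.59 to -0.11, -0.15 and 0.89. A call of higher is thus easily kept there. Bcl6, a repressor of growth hormone targets, had a log2 difference of -0.66 (limma adjusted p = 0.113).

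Of 19 genes listed for higher expression in male than in female mouse liver, 17 were tested. Of these, 16 were called lower with CCl4 and 0 higher, beside 51.1% lower and 10.3% higher over all liver genes. Under the 3 other scalings 12 of the 16 calls held, where at most 398 of the 5304 over all liver genes could. This list, like the others, was chosen with earlier results of these data known, so its counts are a description. The list's median log2 difference was -2.77, and -1.52 after rescaling to standard-symbol genes, where that of all genes was 0.89. The largest differences were -5.93 ± 0.36 for Elovl3, a fatty acid elongase, -5.06 ± 0.34 for Hsd3b5, a steroid-metabolising enzyme, -4.35 ± 0.35 for Selenbp2, a selenium-binding protein, and -4.15 ± 0.32 for Serpina1e, an antitrypsin copy (SE; limma adjusted p from 1.415e-06 to 1.131e-05). Selenbp2 and Serpina1e have near-identical copies with which reads can be shared.

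Of 25 genes listed for higher expression in female liver, only 10 passed the filter and were tested. Of these 10, 3 were called lower and 0 higher, a smaller share than the 51.1% and 10.3% of all liver genes. The share does not cover the listed genes below the filter. The list's median was -0.20, and 1.18 after rescaling to standard-symbol genes. The called genes were the cytochrome P450 genes Cyp2c40 at -3.92, Cyp2c69 at -3.0 and Cyp4a14 at -2.24 (limma adjusted p = 4.092e-05, 9.597e-07 and 0.00147), of which Cyp4a14 did not hold under every other scaling. The Y-linked genes Ddx3y, Uty, Kdm5d and Eif2s3y were above 0 and Xist was at most 0.08 TPM in all 6 liver libraries.

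Among 14 tested hepatocyte regulators, 11 were called lower and 0 higher, beside 51.1% lower over all liver genes. No call held under all 3 other scalings, where at most 398 of the 5304 calls of lower over all liver genes could. The list's median was -0.89, and 0.46 after rescaling to standard-symbol genes, so that its direction turned. Hnf4a, a nuclear receptor that maintains hepatocyte genes, had a log2 difference of -1.98, Cebpa, a liver-enriched activator, -1.86, Foxa2, a forkhead pioneer factor, -1.37, and Nr1i3, the xenobiotic receptor CAR, -1.33 (limma adjusted p = 0.00164, 0.00111, 0.0149 and 0.00316). Zhx2, a homeobox regulator known from strain differences in Mup expression, averaged 1.25 ± 0.396 TPM with CCl4 and 2.57 ± 0.223 TPM with vehicle (log2 difference -0.68, limma adjusted p = 0.00956), but after rescaling its difference was 0.55 (limma adjusted p = 0.0205). Zbtb20, a zinc-finger repressor in liver, had a log2 difference of 0.13 (limma adjusted p = 0.575). It was called higher under the 3 other scalings, at 0.38 to 1.66, each of which also raised the median over all genes.

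Other lipocalins and secreted plasma proteins were listed for comparison. Of 9 tested lipocalins outside the Mup family, 5 were called lower and 0 higher, a share near the 51.1% of all liver genes. None of these calls held under all 3 other scalings, where at most 398 of the 5304 over all liver genes could. The list's median was -1.20, and 0.54 after rescaling to standard-symbol genes. The called genes included C8g, a complement subunit, at -1.80, Rbp4, the retinol carrier, at -1.67, Ambp, the precursor of alpha-1-microglobulin, at -1.63, and Orm1, an acute-phase glycoprotein, at -1.30 (limma adjusted p from 0.00112 to 0.00534). Orm1 was called higher after quantile normalization, at 0.51, and after rescaling, at 0.45 (limma adjusted p = 0.00869 and 0.0183). Of 20 plasma protein genes all 20 were called lower, beside 51.1% of all liver genes. Under the 3 other scalings 6 of these calls held, beside at most 398 of the 5304 over all liver genes. The list's median was -2.04, and -0.29 after rescaling. The largest were Serpina3k at -2.50, Serpina1c at -2.47, Apoa1 at -2.41 and Serpina1a at -2.40 (limma adjusted p from 8.674e-05 to 0.000317).

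**Figure D4:**
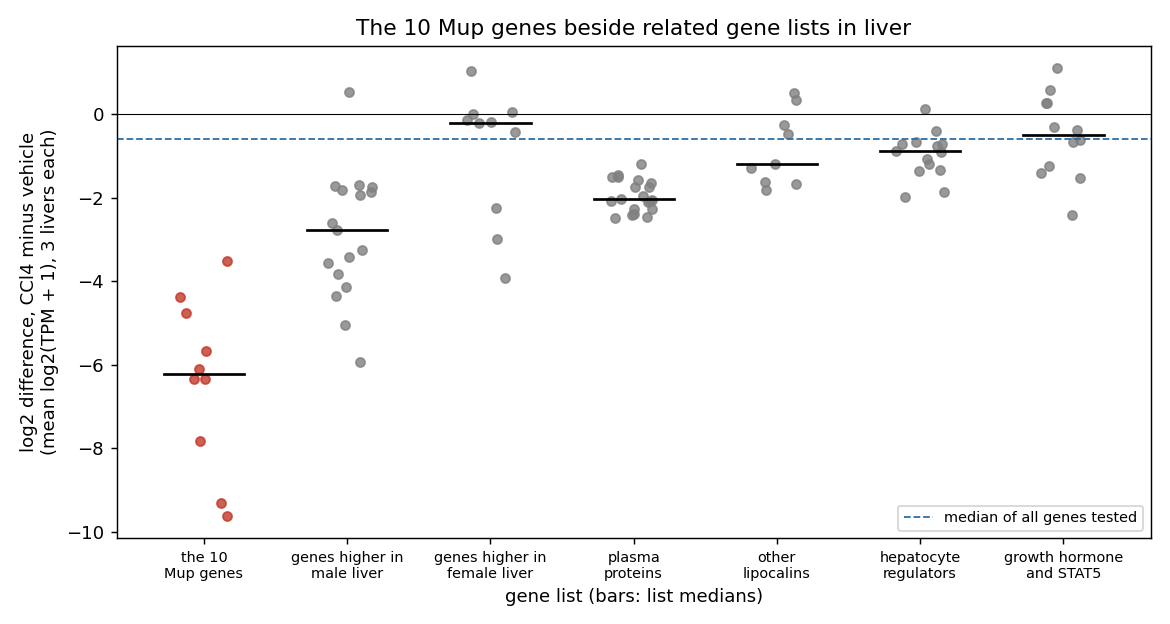
Difference in mean log2(TPM + 1) between CCl4 and vehicle livers for the 10 Mup genes, in red, and for the tested genes of 6 lists, in grey, with black bars for list medians and a dashed line for the median of all genes tested. The Mup median was -6.22, that of the genes higher in male liver -2.77, that of plasma proteins -2.04 and that of all genes -0.59, all from TPM as deposited; after rescaling to standard-symbol genes the median of all genes was 0.89.

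The genes whose profile over the 6 liver libraries was most like that of the 10-gene sum were sought among 5359 named genes outside the family with a mean of at least 5 TPM in vehicle livers. Likeness was the root-mean-square distance between mean-centred log2(TPM + 1) profiles over these 6 libraries, which mainly reflects the size of the difference between the groups. The nearest was Selenbp2, at 0.237, with 26.3, 14.5 and 33.6 TPM in CCl4 livers and 447, 541 and 511 TPM in vehicle livers. It was followed by Hectd2os, an RNA antisense to Hectd2, at 0.302, and by Cyp2e1, the cytochrome P450 that activates CCl4, at 0.368. Oat, an ornithine-metabolising enzyme, was at 0.369, Serpina1e at 0.376 and Car3, a carbonic anhydrase of liver, muscle and fat, at 0.402. The labels do not say whether the counting used strand, so Hectd2os and Hectd2 may share reads.

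In skin, CCl4 replicate 2 stood apart from the other libraries by its adipocyte markers and CCl4 replicate 3 by its low myeloid markers, as detailed after the Mup values. Skin was not used to choose the genes, and there the 10-gene sum was 71.2, 2409 and 8.43 TPM in CCl4 libraries and 45.9, 54.0 and 44.1 TPM in vehicle libraries. The CCl4 libraries lay on both sides of the narrow vehicle range, and a single one, replicate 2, set the mean of 829 ± 1368 TPM with CCl4, against 48.0 ± 5.26 TPM with vehicle (SD, n = 3 each). A two-sided exact permutation test of the sum gave p = 0.7, where 3 against 3 cannot go below 0.1. The difference was 1.27 on the log2 scale and -0.90 without CCl4 replicate 2.

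In skin 4 of the 10 genes, Mup7, Mup14, Mup19 and Mup22, passed the filter, and limma called none of them (each adjusted p = 0.9999). Over all 13767 skin genes tested the share called was 0.0%, with 288 genes at an unadjusted p under 0.05. The log2 differences were 1.11 ± 1.72 for Mup22, 1.14 ± 1.56 for Mup14, 1.54 ± 1.45 for Mup7 and 2.04 ± 1.29 for Mup19 (SE). Without CCl4 replicate 2 they were -1.16, -1.0, -0.39 and 0.40. Mup1, which did not pass the filter, was the single one of the 10 with all 3 CCl4 libraries above all 3 vehicle libraries or below them, where 5.28% of the genes tested did not overlap. It had 0.76, 3.54 and 1.47 TPM with CCl4 and 0.69, 0 and 0 TPM with vehicle.

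Mup22 was again the leading gene, at 58.9, 1851 and 3.63 TPM in CCl4 skin libraries and 34.2, 36.9 and 37.7 TPM in vehicle skin libraries. Its share of the 10-gene sum was 82.8%, 76.8% and 43.1% with CCl4 and 74.5%, 68.3% and 85.5% with vehicle. Mup7, by contrast, had 0.60, 107 and 1.43 TPM with CCl4 and 2.55, 3.50 and 0.07 TPM with vehicle, and Mup6 was listed at 0 in all 6 skin libraries. In both Mup22 and Mup7, CCl4 replicate 2 was far above every other skin library. Mup14 had 5.66, 342.6 and 1.44 TPM with CCl4 and 5.12, 12.3 and 5.47 TPM with vehicle, and Mup19 had 4.6, 86.4 and 0.46 TPM with CCl4 and 2.58, 0.79 and 0.59 TPM with vehicle. The highest value of Mup12, Mup15, Mup17 and Mup21 in any skin library was 0.51, 14.9, 2.14 and 0.47 TPM. All 9 detected genes had their highest skin value in CCl4 replicate 2, as did 19 of the 20 numbered Mup genes detected in skin.

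The family was not composed in skin as in liver. Per 100 TPM of Mup22, Mup3 stood at 0.204, 1.46 and 5.23 in CCl4 skin and at 0, 3.45 and 3.98 in vehicle skin, while it stood at 39.7, 52.7 and 45.7 in CCl4 livers and at 48.8, 50.6 and 49.9 in vehicle livers. Mup10 on the same scale stood at 32.4, 34.2 and 21.8 in CCl4 skin and at 24.7, 26.3 and 29.2 in vehicle skin, against 15.7, 27.4 and 17.6 in CCl4 livers and 6.44, 4.97 and 6.20 in vehicle livers. Mup3, which has sequence of its own, was thus nearly missing from the skin libraries relative to Mup22. These tissues were prepared by different methods and no test was made between them.

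All 6 skin libraries held markers of cells other than myeloid ones. The 8 keratinocyte markers summed to 1213 to 4326 TPM with CCl4 and 1576 to 3518 TPM with vehicle. Among them Mgst1 was not particular to skin, at 5137, 5715 and 5643 TPM in vehicle livers. It supplied 2140 of the 3518 TPM in vehicle skin replicate 1. The 8 lymphoid and mast cell markers summed to 817 to 2136 TPM and 751 to 3940 TPM. Cx3cr1 itself was 5.28, 0 and 0.28 TPM with CCl4 and 3.91, 0.27 and 0.91 TPM with vehicle. CCl4 skin replicate 2 stood apart in its adipocyte markers. The 10 adipocyte markers, listed after these values had been seen, summed to 240, 7920 and 66.9 TPM in CCl4 skin and to 89.9, 110 and 972 TPM in vehicle skin, and 8 of the 10 were highest in that library. Adipoq, the adipocyte hormone adiponectin, had 3.74, 93.4 and 2.17 TPM with CCl4 and 2.18, 2.35 and 12.8 TPM with vehicle, and none of the 10 markers was at 0 in all 6 skin libraries. The 13 hepatocyte markers summed to 9.57, 232 and 8.18 TPM in CCl4 skin and to 3.83, 124 and 23.7 TPM in vehicle skin, with 6 of the 13 highest in CCl4 replicate 2 and Tat at 0 in all 6. Apoa2, at 110.5 TPM, and Cyp2e1, at 90.8 TPM, were the largest parts of the 232 TPM. Alb, Apoa1 and Apob were instead highest in vehicle replicate 2, at 5.28, 92.5 and 5.09 TPM.

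Alb in CCl4 skin replicate 2 was 4.51 TPM beside 2409 TPM for the 10 Mup genes, while in CCl4 livers the sum was 36.8 TPM per 100 TPM of Alb. The 12 myeloid markers of skin summed to 26220, 17482 and 372 TPM with CCl4 and to 39750, 50693 and 52108 TPM with vehicle, so CCl4 replicate 3, which has the lowest Mup sum, also had few of them. The 6 skin fibroblast markers summed to 454, 4377 and 359 TPM with CCl4 and to 2168, 6881 and 1619 TPM with vehicle. The part of these cell types in the skin Mup values was not tested.

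**Figure D5:**
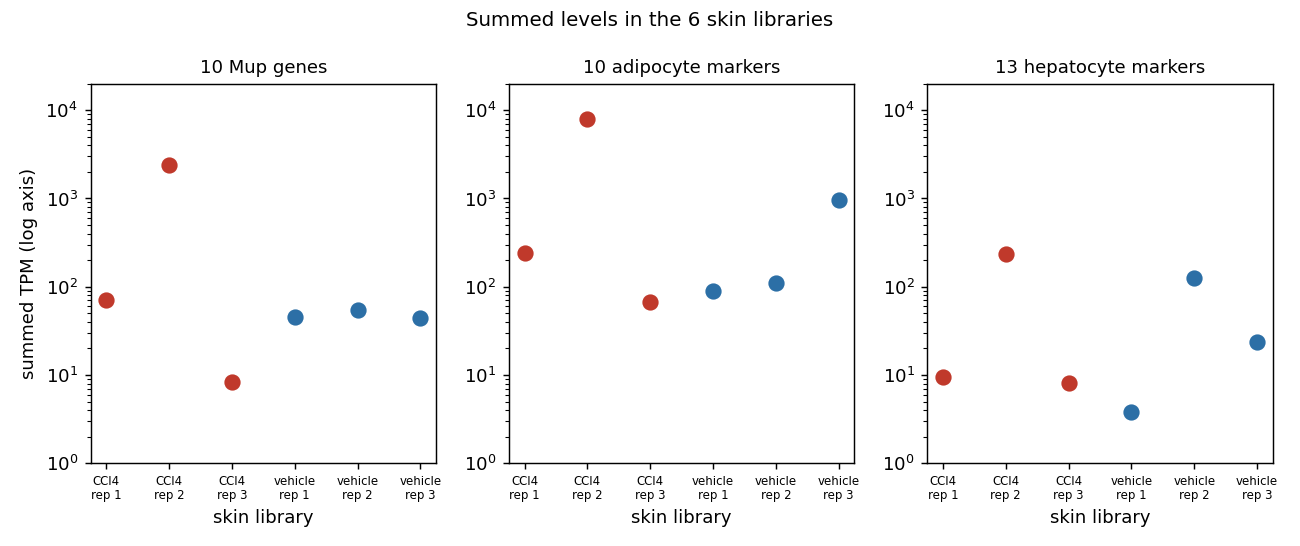
Summed TPM, on a log axis, of the 10 Mup genes, of 10 adipocyte markers and of 13 hepatocyte markers in the 6 skin libraries, CCl4 in red on the left and vehicle in blue on the right. CCl4 replicate 2 is the highest in each panel, at 2409, 7920 and 232 TPM, and the vehicle Mup sums lie between 44.1 and 54.0 TPM. Of the 13 hepatocyte markers taken singly, 6 were highest in that library.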

How the data were processed

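One table of gene-level TPM for 12 libraries was used, as deposited by the authors. Per the submitters' processing notes, fastp, HISAT2, StringTie and RSEM and the mouse build GRCm39 were used, with versions not given in the sources used here. TPM carry no read depth, so the depth is unknown and no counting interval can be given. TPM sums to a constant per library, and reads shared by paralogs are divided by the authors' software, which affects single Mup genes more than their sum.

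Gene IDs were matched to symbols for 51884 of 57180 rows. Liver and skin were fitted apart with limma 3.58.1 (R 4.3.3, trend, two-sided) on log2(TPM + 1), for genes reaching 1 TPM in 3 or more of 6 libraries, with Benjamini-Hochberg adjustment over all genes tested and calls at 0.05. The procedure was tested on simulated data. The skin sum was tested by exact permutation. The 10 genes and the lists were chosen with earlier results of these data known, and the adipocyte markers after these values were seen. The text names all 10 genes, other Mup genes with a mean of 1 TPM in a liver group, up to 4 called genes with the largest difference per list, 7 set regulators (Ghr, Stat5b, Igf1, Hnf4a, Zhx2, Zbtb20 and Bcl6), and the 6 genes most like the sum.

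Coding sequences and shared 150-base windows came from GENCODE M21 (GRCm38) and promoters from RefSeq (GRCm38.p6), a build other than the authors', so sharing may differ slightly from that in their annotation. Where a gene had several coding transcripts, the one nearest the median coding length was aligned (Biopython 1.88). Alternatives were pseudocounts of 0.1 and 5, no filter or one at 5 TPM, 3 other scalings, a replicate block, 1 fit over 12 libraries, the sum of all Mup rows, and leaving out each library.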

Additional observations from a re-analysis of the deposited data

How the results depend on the processing

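The direction of each of the 10 genes in liver was lower with CCl4 under every scaling, pseudocount and left-out library tried, with log2 differences from -10.20 (Mup17, pseudocount 0.1) to -1.77 (Mup22, rescaled to standard-symbol genes). The liver sum, at -4.66, was -4.04 after median-ratio scaling, -4.07 after quantile normalization, -2.91 after rescaling to standard-symbol genes and -4.18 over all rows with a Mup symbol, and ran from -4.91 to -4.47 with 1 library left out. The cause of these moves was not tested. The count of liver genes called, 6377, was 4084 with a filter at 5 TPM, where fewer genes were tested, 1736 in 1 fit over all 12 libraries, whose cause was not tested, and 4454 to 7053 with 1 library left out.

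In skin 0 genes were called, also with any 1 library left out, and 1 in the fit over 12 libraries. The skin sum difference, at 1.27, ran from -0.90 to 3.10 with 1 library left out, the first value being without CCl4 replicate 2, and the ranges for Mup7, Mup14 and Mup22, again lowest without that library, were -0.39 to 2.65, -1.0 to 2.57 and -1.16 to 3.16. Under the other settings it kept its sign, and 3 against 3 cannot pass the threshold under any of them.

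Replicate numbers, taken from the sample titles, are shared between the groups, but nothing in the labels says that they pair mice. The numbers in the library names differ from the titles for liver CCl4 replicate 3, skin CCl4 replicate 3 and skin vehicle replicates 2 and 3, and by those names the skin CCl4 replicate 3 and vehicle replicate 2 libraries share a number, at a correlation of -0.18. Same-numbered deviations correlated at -0.04, 0.08 and 0.07 in liver and at 0.59, 0.09 and 0.35 in skin. In skin, CCl4 replicates 1 and 3 correlated best with the vehicle library of the same number. The libraries were not taken as pairs, because the labels do not pair them. With a replicate block, 6493 genes were called in liver and 0 in skin, and CCl4 skin replicate 2 correlated best with vehicle replicate 3. Skin genes at an unadjusted limma p under 0.05 numbered 716 with the block and 288 without it. No depth was known, so values near 1 TPM, such as those of Mup17 and Mup6 in CCl4 livers, have an unknown counting error.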

Other observations

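Vehicle livers were not alike for every Mup gene. Of the 10 genes, 8 were highest in vehicle replicate 2 and 9 lowest in vehicle replicate 1, with the highest value 1.63 times the lowest for Mup17, 1.58 times for Mup19, 1.37 times for Mup21 and 1.03 times for Mup7. Elovl3 ran the same way, at 2.56 times. So did Alb, at 1.14 times, and the hepatocyte regulator Foxa2, at 5.08 times. The 13 hepatocyte markers together stood at 95995, 104560 and 102842 TPM in vehicle replicates 1, 2 and 3, the same order. Cish, a STAT5 target and feedback inhibitor, also ran so, at 3.78 times, while Bcl6, which represses growth hormone targets, was highest in replicate 1 and lowest in replicate 2, at 3.54 times. Both levels were low, at 1.02 to 3.85 TPM for Cish and 2.25 to 7.96 TPM for Bcl6. Of the other tested genes on the growth hormone list, Jak2, Stat5a, Socs2, Socs3 and Ptpn1 ran as Cish did. Ghr, Stat5b, Igf1 and Igfals were instead highest in replicate 3, and Stat3 in replicate 1. Igf1 had 299, 297 and 311 TPM. Mup22, Mup9, Mup10 and Mup16 were highest in replicate 1 and lowest in replicate 2, at 1.04, 1.12, 1.35 and 1.05 times. In CCl4 livers 9 of the 10 genes were highest in replicate 3, which also had the most Alb (21657 TPM, against 8884 and 10833 TPM in the other CCl4 livers), whereas Mup19 was lowest there. These genes were picked after their values had been seen, each group holds 3 libraries, and no test was made.

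The skin libraries differed in sex-linked transcripts. Ddx3y was 0, 25.4 and 2.00 TPM in CCl4 skin and 0, 1.13 and 5.52 TPM in vehicle skin, and Xist was 4.6, 0 and 1.26 TPM in CCl4 skin and 4.54, 7.15 and 0 TPM in vehicle skin. Replicate 1 of both groups thus had Xist with Ddx3y at 0, while CCl4 replicate 2, the library with the high Mup sum, had Ddx3y with Xist at 0. Eif2s3y was 0 in both replicate 1 libraries as well. Kdm5d and Uty were not, at 0.66 and 0.04 TPM in CCl4 replicate 1 and 0.87 and 0.18 TPM in vehicle replicate 1. Kdm5d was 0.51 TPM in CCl4 replicate 2, so the Y-linked genes did not all run the same way. The part of sex in the skin Mup values was not tested.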
